A study of Mus musculus with 15 samples.

Results

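The 9 genes described here mark dendritic cells and their subsets: Itgax, Flt3, Zbtb46, Irf8, Batf3, Xcr1, Clec9a, Cd209a and Siglech. They were chosen by name from the 48709 genes of the deposited count table, and all 9 were present and passed the filter on low counts, which kept 16554 genes. RNA from hand-picked pancreatic islets of NOD mice was sequenced as polyA-enriched libraries, with 3 females at each of 5 ages: 4, 6, 8, 10 and 12 weeks. All mice carried the NOD genotype, a strain in which immune cells infiltrate the islets before spontaneous diabetes appears, and no treatment and no non-diabetic strain was part of the series. Library totals ran from 25407492 to 41616275 counts.

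Dendritic cells sample their surroundings, move to lymph nodes and present antigen to T cells. The type 1 conventional subset (cDC1) depends on the transcription factors Batf3 and Irf8 and cross-presents antigen from other cells to CD8 T cells. The type 2 conventional subset (cDC2) presents mainly to CD4 T cells, and plasmacytoid dendritic cells (pDC) are known for producing type I interferon. In NOD islets, resident macrophages share Itgax with dendritic cells, so that no single gene of the set counts dendritic cells on its own.

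Several libraries stood apart from others of the same age. The geometric mean level of 8 pan-leukocyte genes (Ptprc, Cd53, Coro1a, Laptm5, Lcp1, Itgb2, Was and Ikzf1) was 19.7, 5.12 and 2.37 CPM (counts scaled to library size) in 4-week replicates 1, 2 and 3. At 6 weeks it was 4.11, 7.23 and 19.6 CPM, and at 8 weeks 10.5, 55.9 and 76.1 CPM. It reached 205, 163 and 87.8 CPM at 10 weeks and 159, 146 and 196 CPM at 12 weeks. The first 4-week mouse thus held as much leukocyte RNA as the third 6-week mouse, and the first 8-week mouse held far less than the other two. Intestinal genes summed to 53.3 CPM in 6-week replicate 2 and to 382 CPM in 12-week replicate 1, against 3.59 to 6.35 CPM in the other mice. Acinar genes summed to between 1317 and 15646 CPM, and endocrine genes, led by Ins2, to between 147495 and 337853 CPM. Since whole islets were sequenced, fewer cells of a type and less RNA per cell cannot be told apart.

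Promoters of the set were read from RefSeq (GRCm38.p6, a C57BL/6J reference and not NOD), where all 9 genes had an entry, to show what sequence the co-varying genes hold upstream. Binding motifs of factors known to act in dendritic cells were searched on both strands in a window from 250 bases before to 50 bases after each start. GAAANNGAA, a pair of IRF half-sites, was found in the Clec9a window and in 8.56% of 32851 promoters. GGAANNGAA, an ETS-IRF composite core, lay in the Cd209a window and in 8.24% of promoters. TGANTCA, the AP-1 site, lay in the windows of Itgax and of Zbtb46 and in 7.81% of promoters. The RefSeq starts of Zbtb46, Batf3 and Irf8 lie well inside the gene regions of the deposited table. TGANNTCA, the longer AP-1 spacing, lay in those of Clec9a and Zbtb46 and in 14.1%. GAGGAA, a PU.1 core, was found for Batf3 and Siglech and in 28.3% of promoters, while the E-box CANNTG was found for all 9 genes and in 72.3%. GAGGAA and GGAANNGAA can overlap, and did not in any of the 10 windows searched for the 9 genes. The 3 windows below run from 160 bases before to 20 bases after the start, and the capitals mark the AP-1 site of Itgax, the IRF pair of Clec9a (read on the opposite strand) and both ETS-IRF cores of Cd209a. The windows are chr7:128129390-128129569 on the plus strand, chr6:129408702-129408881 on the plus strand and chr8:3748965-3749144 on the minus strand.
Itgax: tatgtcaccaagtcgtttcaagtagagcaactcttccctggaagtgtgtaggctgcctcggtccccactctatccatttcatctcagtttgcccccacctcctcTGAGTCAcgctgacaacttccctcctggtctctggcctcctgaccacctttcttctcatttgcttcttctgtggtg
Clec9a: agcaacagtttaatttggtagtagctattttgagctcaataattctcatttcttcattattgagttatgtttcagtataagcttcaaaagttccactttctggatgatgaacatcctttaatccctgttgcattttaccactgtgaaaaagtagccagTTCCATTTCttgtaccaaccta
Cd209a: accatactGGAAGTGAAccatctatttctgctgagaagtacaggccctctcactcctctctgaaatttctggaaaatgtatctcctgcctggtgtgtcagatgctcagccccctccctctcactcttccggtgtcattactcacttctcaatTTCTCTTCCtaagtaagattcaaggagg
No 2 of these windows share their capitals, and each motif is a description of the letters, not of a bound site.

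All 9 genes rose between 4 and 12 weeks, by 3.36-fold for Zbtb46 to 13.8-fold for Flt3. The median gene rose by 3.25 on the log2 scale, whereas the median of all genes tested moved by -0.05. Most of the increase fell between 6 and 10 weeks. Mice of one age differed severalfold at 4, 6 and 8 weeks and less at 10 and 12 weeks. The summed level of the 9 genes was 60.4, 20.6 and 14.0 CPM at 4 weeks, 15.3, 29.4 and 64.8 CPM at 6 weeks and 26.3, 137 and 171 CPM at 8 weeks. It was 345, 311 and 176 CPM at 10 weeks and 288, 218 and 317 CPM at 12 weeks. The highest mouse therefore stood 6.5-fold above the lowest at 8 weeks and 1.45-fold at 12 weeks.

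**Figure D1:**
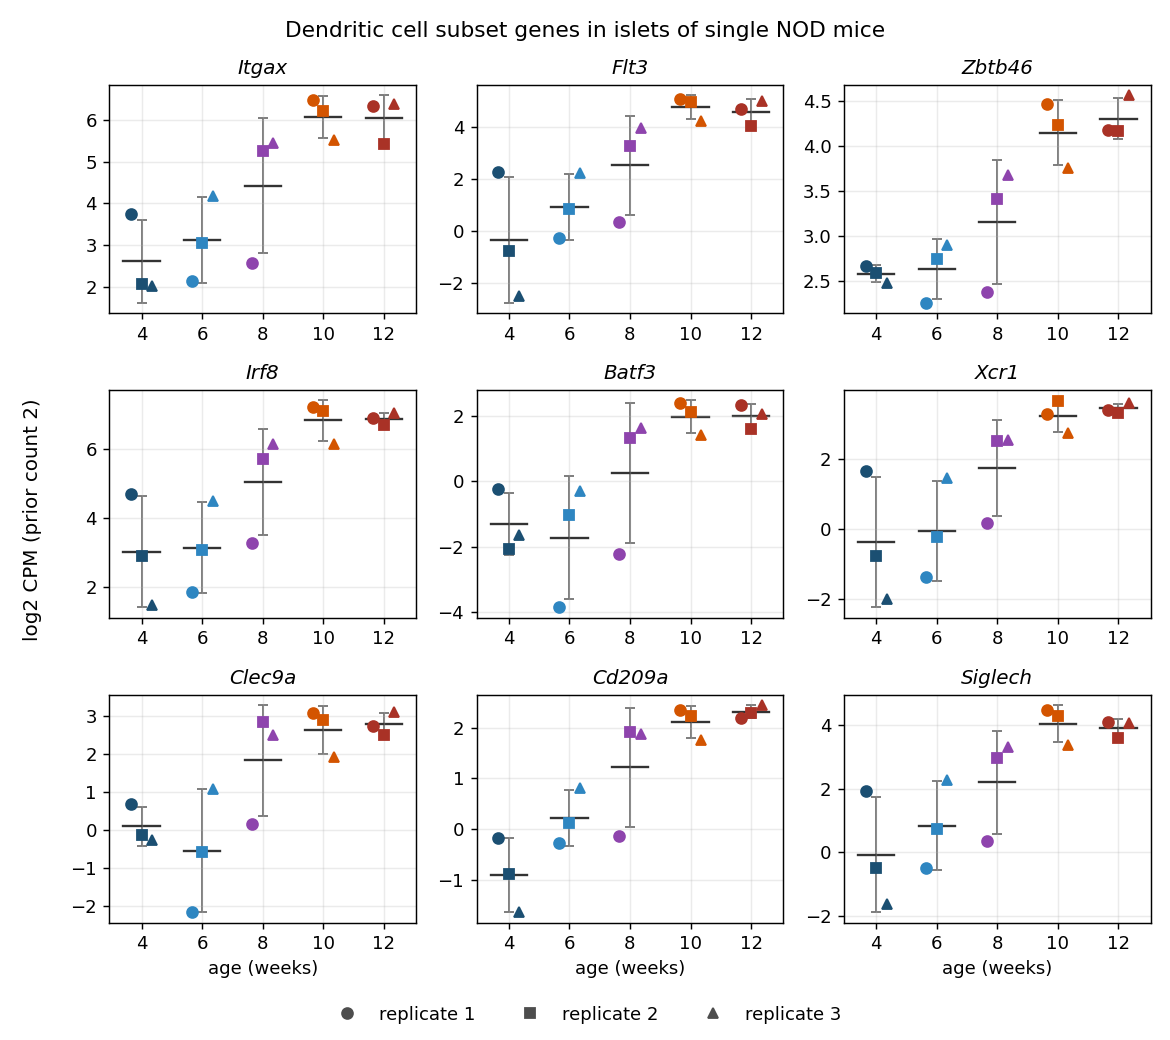
Level of each of the 9 genes in each mouse against age in weeks, as log2 CPM with a prior count of 2; symbols mark the replicate, black lines the mean and grey bars the SD of 3 mice. All 12-week mice sit above all 4-week mice in every panel, and the first 8-week mouse sits with the 4- and 6-week mice.

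Among the genes that several subsets share, Itgax (chr7:128129547-128150657, plus strand, GRCm38) encodes CD11c, the integrin chain used to gate dendritic cells, which macrophages of the islet also carry. It stood at 13.5, 4.15 and 4.02 CPM at 4 weeks, 4.36, 8.29 and 18.1 CPM at 6 weeks, 5.91, 38.0 and 43.8 CPM at 8 weeks, 88.0, 74.0 and 45.4 CPM at 10 weeks and 80.5, 42.8 and 82.7 CPM at 12 weeks. The first mouse of 4 weeks was the high one of its age, and the first mouse of 8 weeks overlapped the 6-week group. Itgax was 9.49-fold higher at 12 than at 4 weeks (log2 fold change 3.25 ± 0.73 SE, edgeR adjusted p = 0.00296), and without the first 4-week mouse its log2 fold change was 4.07. Some of its sequence, 8.02% of 50-base words, is shared with the neighbouring integrin gene Itgad, which rose as well (log2 fold change 3.06, edgeR adjusted p = 0.00321).

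Flt3 (chr5:147330741-147400489, minus strand) encodes the receptor through which Flt3 ligand sustains dendritic cells and their precursors. Its levels were 4.68, 0.513 and 0.109 CPM at 4 weeks, 0.753, 1.71 and 4.61 CPM at 6 weeks, 1.2, 9.52 and 15.5 CPM at 8 weeks, 33.7, 30.9 and 18.6 CPM at 10 weeks and 25.6, 16.3 and 31.9 CPM at 12 weeks. The third 4-week mouse held 3 counts, the floor used here, and the first held 125. Flt3 had the largest fold change of the set, 13.8-fold from 4 to 12 weeks (log2 fold change 3.79 ± 1.03 SE, edgeR adjusted p = 0.00832). Without the first 4-week mouse the log2 fold change was 6.35, so that its size rested on that library. The ligand is split over a pair of overlapping rows in the table, Flt3l_1 and Flt3l_2, whose reads cannot be told apart, and these rose by 1.18 and 1.75 on the log2 scale (edgeR adjusted p = 0.000498 and 0.00128).

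Zbtb46 (chr2:181387762-181459426, minus strand) encodes a transcription factor of conventional dendritic cells that endothelial cells also express. Its levels hardly varied among young mice, at 6.29, 5.94 and 5.50 CPM at 4 weeks and 4.71, 6.60 and 7.37 CPM at 6 weeks. They then stood at 5.14, 10.6 and 12.8 CPM at 8 weeks, 21.9, 18.6 and 13.4 CPM at 10 weeks and 18.1, 17.8 and 23.6 CPM at 12 weeks. Of the 9 genes Zbtb46 had the smallest rise, 3.36-fold (log2 fold change 1.75 ± 0.29 SE, edgeR adjusted p = 0.000577). Endothelial markers, led by Plvap, summed to between 464 and 664 CPM in all 15 mice, with 3 of 5 higher and 1 lower at 12 weeks, and none of the 5 was at 0 in any mouse. Their part in the level of Zbtb46 was not tested.

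Irf8 (chr8:120736358-120756694, plus strand), a transcription factor needed for cDC1 and for pDC function and active in B cells too, was the most abundant of the set by counts. It reached 26.0, 7.40 and 2.71 CPM at 4 weeks, 3.57, 8.34 and 22.8 CPM at 6 weeks, 9.74, 52.2 and 71.5 CPM at 8 weeks, 151, 139 and 71.9 CPM at 10 weeks and 120, 105 and 132 CPM at 12 weeks. The 12-week mice lay within 1.25-fold of each other, while those of 4 weeks spread 9.57-fold. Irf8 was 9.89-fold higher at 12 than at 4 weeks (log2 fold change 3.31 ± 0.86 SE, edgeR adjusted p = 0.00623). Without the first 4-week mouse it rose by 4.57 on the log2 scale. A predicted gene on the same strand, Gm20388, spans the Irf8 locus and took 645 counts over the 15 mice beside 28575 for Irf8.

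Among the cDC1 genes, Batf3 (chr1:191097847-191108945, plus strand), the transcription factor that names the Batf3-dependent lineage and that activated T cells also use, was the least abundant by counts. It was measured at 0.786, 0.171 and 0.253 CPM at 4 weeks, 0, 0.421 and 0.749 CPM at 6 weeks, 0.146, 2.46 and 3.07 CPM at 8 weeks, 5.25, 4.35 and 2.63 CPM at 10 weeks and 5.06, 2.98 and 4.15 CPM at 12 weeks. The first 6-week mouse had no count, which allows a level of up to 0.119 CPM. Batf3 rose 9.88-fold between 4 and 12 weeks (log2 fold change 3.30 ± 0.94 SE, edgeR adjusted p = 0.0106). With the first 4-week mouse left out the log2 fold change was 4.22, and over the mice left out one at a time the edgeR adjusted p ran from 0.0134 to 0.0486.

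Xcr1 (chr9:123852315-123862029, minus strand) encodes the chemokine receptor that defines cDC1. Levels were 3.11, 0.513 and 0.181 CPM at 4 weeks, 0.317, 0.789 and 2.68 CPM at 6 weeks, 1.06, 5.74 and 5.82 CPM at 8 weeks, 9.84, 12.5 and 6.68 CPM at 10 weeks and 10.7, 10.1 and 12.2 CPM at 12 weeks. The 12-week mice lay close together, within 1.21-fold. Xcr1 rose 8.6-fold (log2 fold change 3.11 ± 0.89 SE, edgeR adjusted p = 0.0106), and without the first 4-week mouse its log2 fold change was 5.0. Xcl1, the ligand that T and NK cells make, went from 0.372 ± 0.406 to 7.01 ± 3.18 CPM (SD, n = 3; log2 fold change 4.22, edgeR adjusted p = 0.00622).

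Clec9a (chr6:129408862-129424763, plus strand) encodes the receptor with which cDC1 recognise dead cells. It stood at 1.53, 0.855 and 0.760 CPM at 4 weeks, 0.158, 0.605 and 2.05 CPM at 6 weeks, 1.06, 7.06 and 5.61 CPM at 8 weeks, 8.36, 7.28 and 3.69 CPM at 10 weeks and 6.61, 5.58 and 8.43 CPM at 12 weeks. Unlike for Xcr1, the 4-week mice lay within 2.02-fold of each other. Clec9a rose 6.52-fold (log2 fold change 2.70 ± 0.74 SE, edgeR adjusted p = 0.00849). The gene overlaps Clec1b on the same strand, which had 132 counts over the 15 mice against 1816.

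Cd209a (chr8:3743397-3748984, minus strand), a lectin of cDC2 and of monocyte-derived cells, was measured at 0.823, 0.470 and 0.253 CPM at 4 weeks, 0.753, 1.03 and 1.69 CPM at 6 weeks, 0.839, 3.71 and 3.61 CPM at 8 weeks, 5.07, 4.65 and 3.32 CPM at 10 weeks and 4.54, 4.85 and 5.41 CPM at 12 weeks. Its mean was higher at each later age, and the change had the smallest adjusted p of the set (9.5-fold, log2 fold change 3.25 ± 0.54 SE, edgeR adjusted p = 0.00056). The related genes Cd209b and Cd209d changed by 6.64 and 3.38 on the log2 scale (edgeR adjusted p = 0.00413 and 0.0191). A single mouse held 708 of the 810 counts of Cd209b, so that its 12-week mean of 8.2 CPM rests largely on that mouse. Its 4-week mean, 0.0798 CPM, lay under the floor of 3 counts, which stood at 0.109 to 0.128 CPM in the 4-week mice. The size of the change in Cd209b is therefore uncertain.

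Siglech (chr7:55768178-55778925, plus strand), a sialic acid receptor used as a pDC marker and also found on some macrophages, stood at 3.71, 0.641 and 0.253 CPM at 4 weeks, 0.634, 1.60 and 4.81 CPM at 6 weeks, 1.2, 7.74 and 9.78 CPM at 8 weeks, 22.3, 19.5 and 10.3 CPM at 10 weeks and 17.0, 12.2 and 16.6 CPM at 12 weeks. High and low mice were the same as for Flt3 at 4, 6 and 8 weeks. Siglech rose 9.89-fold (log2 fold change 3.31 ± 0.92 SE, edgeR adjusted p = 0.00936), and by 5.11 on the log2 scale without the first 4-week mouse.

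Across the 5 ages together, all 9 genes changed (edgeR joint test, adjusted p from 0.000719 for Zbtb46 to 0.0144 for Xcr1), as did 56% of all genes tested. Without the pair of mice that held intestinal RNA, 6 of the 9 did, beside 45.1% of all genes. From 4 to 12 weeks all 9 were called higher, beside 26.3% of all genes, and for all 9 every 12-week mouse stood above every 4-week mouse, which held for 30.3% of all genes. The 9 calls remained under every library-scaled alternative, including without the pair with intestinal RNA. When scaled by library totals alone, the median of all genes shifted to 0.197 and 78.3% of all called genes were higher, against 49.2% with TMM. The share of genes called higher thus depended on the scaling, while all 9 genes were called higher under both.

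Between 4 and 6 weeks none of the 9 was called by edgeR, DESeq2 or the edgeR exact test, beside 0.0906%, 1.63% and 1.06% of all genes. At an unadjusted p under 0.05 edgeR found none of the 9 either, beside 8.67% of all genes. The median log2 fold change of the set was 0.08, but it was 1.32 without the first 4-week mouse and -0.49 without the third 6-week mouse. With all mice the largest was that of Cd209a, 1.16 ± 0.55 SE (edgeR adjusted p = 0.592). Between 6 and 8 weeks all 9 estimates were above 0, from 0.61 for Zbtb46 to 2.30 for Clec9a with a median of 1.75. With mice left out one at a time all 9 stayed above 0 but moved: Clec9a ran from 1.82 to 3.49, Xcr1 from 1.31 to 2.87 and Siglech from 0.94 to 2.44, each highest without the third 6-week mouse. None of the 9 passed an edgeR adjusted p of 0.05, nor did any other gene (0% called). DESeq2 called 1 of the 9, Clec9a, higher, beside 2.64% of all genes, and the edgeR exact test none, beside 1.61%. By the study's threshold of a fold of 1.5 and a p of 0.05, taken here as an unadjusted p, Itgax, Clec9a, Batf3, Cd209a and Irf8 were higher, 5 of 9 genes beside 8.4% of all genes. Without the first 8-week mouse all 9 passed that threshold, beside 11.5% of all genes. Clec9a, Zbtb46 and Cd209a then passed an adjusted p of 0.05 by edgeR's quasi-likelihood test (edgeR adjusted p = 0.0388, 0.0433 and 0.0374), beside 4.29% of all genes called higher. Without 8-week replicate 2 or 3 Clec9a alone passed the threshold, beside 5.9% and 4.09% of all genes. None of the 9 had all 8-week mice above all 6-week mice, which 7.62% of all genes did.

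From 8 to 10 weeks the estimates were again all above 0, from 0.49 for Clec9a to 1.67 for Flt3. Without the first 8-week mouse all 9 were at their lowest of the mice left out, from 0.02 for Clec9a to 1.15 for Flt3, and Flt3 reached 2.37 without the third. Zbtb46 alone was called (log2 fold change 0.92 ± 0.28 SE, edgeR adjusted p = 0.0456), beside 8.4% of all genes called higher, and its call was lost without the first or second mouse of either age, where the adjusted p ran up to 0.171. It was also lost with replicate number as a block, without the filter on low counts, with the 2 ages alone and without both mice with intestinal RNA (edgeR adjusted p = 0.066, 0.0551, 0.179 and 0.0721). All 10-week mice stood above all 8-week mice for Itgax, Flt3, Xcr1, Zbtb46, Siglech and Irf8, and for 17.2% of all genes. From 10 to 12 weeks the estimates ran from -0.18 to 0.18, with 4 of 9 above 0, and none of the 9 was called by edgeR, DESeq2 or the exact test, beside 0%, 0.0822% and 0.0483% of all genes. At an unadjusted p under 0.05 there were none of the 9 and 7.52% of all genes.

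**Figure D2:**
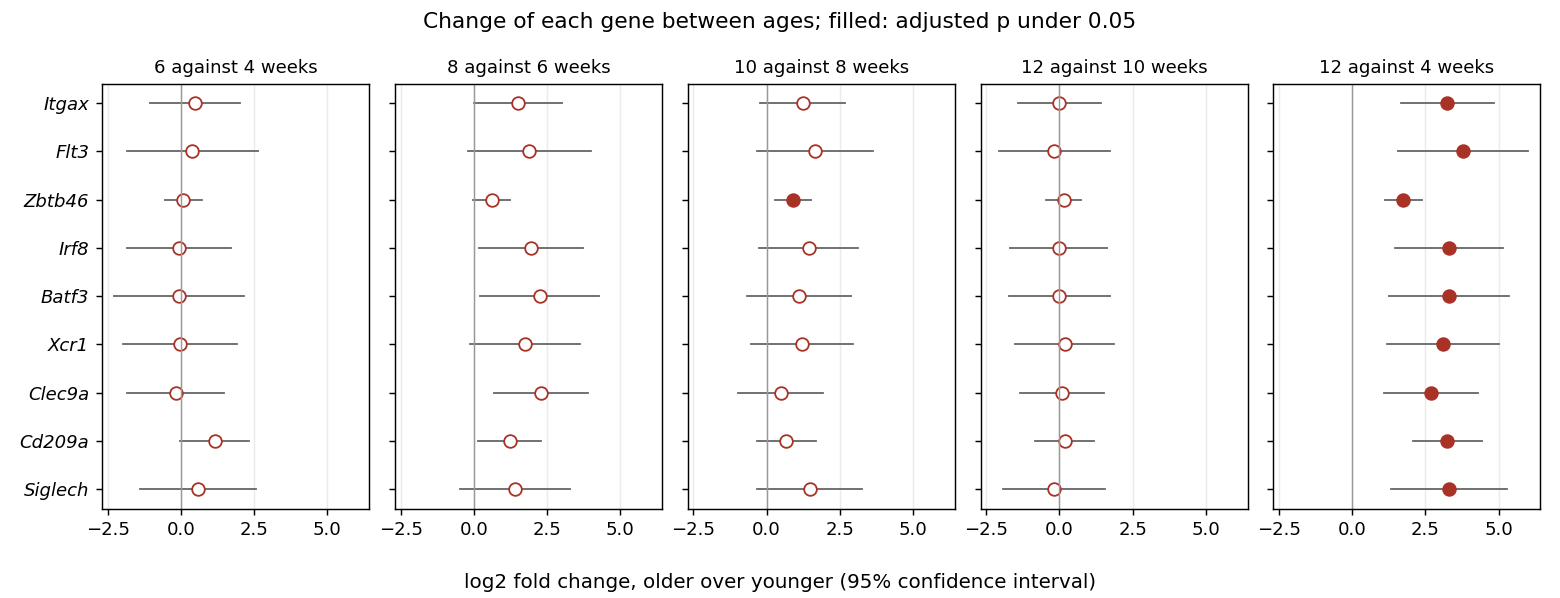
Log2 fold change of each gene with its 95% confidence interval in the 5 comparisons of ages, from the edgeR fit over 15 mice; filled points had an adjusted p under 0.05. All 9 points are filled at 12 against 4 weeks, Zbtb46 alone at 10 against 8 weeks, and the intervals at 12 against 10 weeks centre near 0.

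Levels between genes were compared per transcript length, in TPM. At 12 weeks Irf8 was first at 42.6 ± 7.16 TPM (SD, n = 3), followed by Itgax at 36.2 ± 12.9, and the ranges of the pair overlapped. Both stood clear of the third gene, Siglech, at 11.4 ± 2.32 TPM. Flt3 at 10.1 ± 3.76, Cd209a at 7.86 ± 1.21, Batf3 at 6.39 ± 1.62, Xcr1 at 6.23 ± 0.999, Zbtb46 at 5.91 ± 1.36 and Clec9a at 5.29 ± 1.44 TPM came next, each overlapping its neighbour in this order. At 4 weeks the order differed: Irf8 at 3.35 ± 3.54 and Itgax at 2.94 ± 2.32 TPM were followed by Zbtb46 at 1.34 ± 0.129 TPM, and the other 6 lay between 0.496 and 0.897 TPM. Zbtb46, at 1.23 to 1.48 TPM, overlapped Siglech, at 0.143 to 2.19 TPM.

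Ratios in TPM within a mouse describe the balance of the subset markers. Xcr1 plus Clec9a over Cd209a was 2.24, 1.26 and 1.70 at 4 weeks, 0.251, 0.557 and 1.14 at 6 weeks, and between 1.05 and 1.71 in the 9 mice of 8, 10 and 12 weeks. The 6-week mice lay below every 4-week mouse. The summed pair was itself uneven at 4 weeks, where Clec9a over Xcr1 was 0.668, 2.25 and 5.68. That ratio lay between 0.676 and 1.66 at the later ages. Siglech over Xcr1 lay between 1.5 and 2.98 in all 15 mice. The 6-week mice, at 2.63, 2.68 and 2.36, lay above every mouse of 4, 8 and 12 weeks and overlapped those of 10 weeks, at 2.98, 2.04 and 2.04. Itgax over Flt3 was 3.7, 10.4 and 47.6 at 4 weeks, 7.44, 6.23 and 5.04 at 6 weeks and 6.31, 5.14 and 3.63 at 8 weeks. It lay between 3.08 and 4.04 at 10 and 12 weeks, where the 6 mice were alike. These ratios were taken with no test, and at 4 and 6 weeks they rest on few counts.

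At every age the 9 genes ordered the mice largely as leukocyte RNA did. The 4-week mouse with the most leukocyte RNA was highest for all 9 genes, and so was the 6-week mouse with the most. At 8 weeks 7 of 9 genes, at 10 weeks 8 and at 12 weeks 7 were highest in the mouse with the most leukocyte RNA. The mouse with the least was lowest for 8 to 9 genes at each age. The levels were therefore also expressed per 1000 counts of leukocyte RNA, using the geometric mean count of the 8 pan-leukocyte genes as the unit.

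Per leukocyte RNA most of the 9 genes were lower in older mice, as were 94.8% of all genes tested (10 and 12 against 4 and 6 weeks, exact permutation test, unadjusted p under 0.05). Itgax stood at 684, 809 and 1695 per 1000 leukocyte counts at 4 weeks, 1061, 1146 and 922 at 6 weeks, 561, 680 and 576 at 8 weeks, 429, 454 and 517 at 10 weeks and 506, 292 and 422 at 12 weeks. Irf8 went from 1318, 1443 and 1145 at 4 weeks to 753, 720 and 674 at 12 weeks. Xcr1 went from 158, 100 and 76.3 to 67.4, 68.8 and 62.1. All 12-week mice lay below all 4-week mice for 8 of the 9 genes, every one but Flt3, beside 92.8% of all genes. For Siglech the margin was minimal: 12-week replicate 1 and 4-week replicate 3 were both at 107 when rounded, the latter from 7 counts. For Batf3 12-week replicate 1 was at 31.8 and 4-week replicate 2 at 33.4, the latter from 4 counts. Flt3 was at 237, 100 and 45.8 at 4 weeks and at 161, 111 and 163 at 12 weeks, inside the range of the young mice. Zbtb46 went from 319, 1160 and 2321 to 114, 122 and 120, though its estimate changes sign to 0.36 (log2) with leukocyte RNA as a covariate in place of a ratio.

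**Figure D3:**
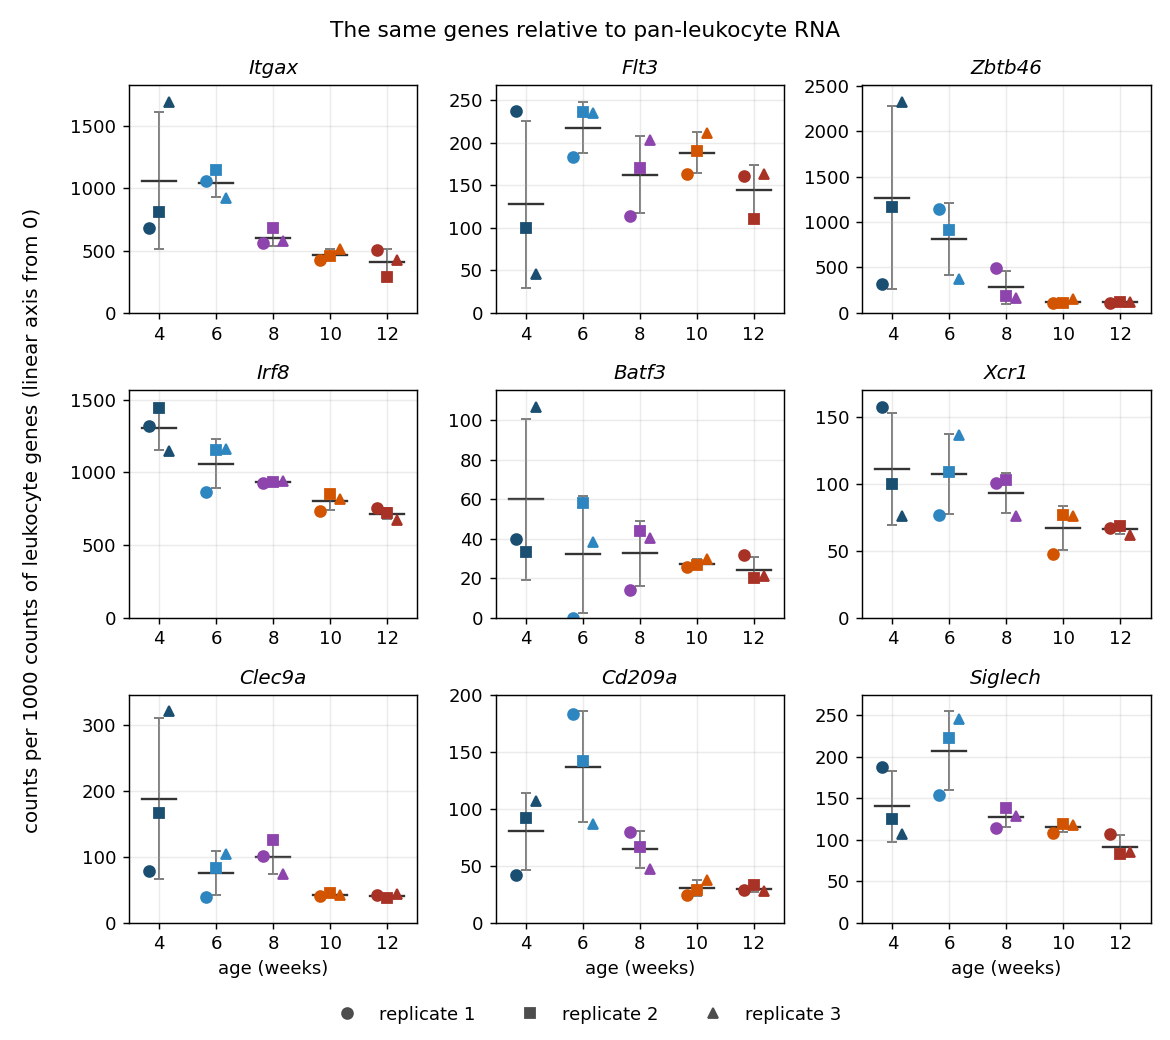
Counts of each gene per 1000 counts of pan-leukocyte genes in each mouse against age in weeks, on linear axes from 0; black lines are the mean and grey bars the SD of 3 mice. Points of 10 and 12 weeks lie below all points of 4 and 6 weeks for Itgax, Zbtb46, Irf8 and Cd209a, and amid them for Flt3. For Batf3 they lie below all of those points but 6-week replicate 1, at 0. For Xcr1 one 10-week mouse, at 76.8, lies just above the lowest 4-week mouse, at 76.3.

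The 6 mice of 10 and 12 weeks were compared with the 6 of 4 and 6 weeks by an exact two-sided permutation test of the log2 ratio to leukocyte RNA, a comparison chosen after the ratios had been seen and run for 9 genes under 4 settings. Of the 9 genes 7 were lower in the older mice at an unadjusted p under 0.05, beside 94.8% of all genes tested. For Itgax, Xcr1, Zbtb46, Cd209a and Irf8 all 6 older mice lay below all 6 younger mice (exact permutation p = 0.00216, the smallest this test can give), as they did for 91.9% of all genes. The test adds 0.5 to each count, and for Xcr1 the separation rests on that, since with nothing added 10-week replicate 2, at 76.8 per 1000, lay above 4-week replicate 3, at 76.3 from 5 counts. With nothing added the other 4 genes and 91.4% of all genes were separated. The median of all genes moved by -4.47 on this log2 scale, and the shifts of the 9 genes ran from -2.79 for Zbtb46 to 0.08 for Flt3. In linear terms the younger mice were 6.93-fold higher for Zbtb46, 3.41-fold for Cd209a, 2.63-fold for Clec9a, 2.35-fold for Itgax, 1.67-fold for Xcr1, 1.66-fold for Siglech and 1.55-fold for Irf8. With leukocyte RNA as a covariate in the fit of 12 against 4 weeks, the estimates for Zbtb46, Cd209a and Flt3 changed sign, to 0.36, 0.47 and -1.27.

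Flt3 and Batf3 did not pass this test (exact permutation p = 0.881 and 0.517), with Batf3 at -0.47 on the log2 scale. The overlap for Batf3 came from 6-week replicate 1 alone, which had 0 counts and stood at 4.82 per 1000 with 0.5 added. Before that addition the other younger mice stood at 33.4 to 107 per 1000 and the older mice at 20.3 to 31.8. The counts of 7 and of 5 genes were the same without the pair of mice with intestinal RNA, beside 94.5% and 92.6% of all genes, and without the first 4-week mouse, beside 95.1% and 93%. With Ptprc alone in place of the 8 genes, 7 were again lower and 6 had no overlap, beside 95.3% and 92.5%. Fitted over all genes with the leukocyte unit as library size, 12 against 4 weeks, Clec9a and Zbtb46 were called lower (log2 fold change -2.16 ± 0.92 and -3.41 ± 0.96 SE, edgeR adjusted p = 0.0209 and 0.000481), 2 of 9 beside 92.5% of all genes, with a median of -5.23 over all genes. Estimates for the other 7 in that fit ran from -1.38 for Itgax to 0.12 for Flt3. With the leukocyte mean as a covariate instead neither was called, beside 0.0302% of all genes called lower, with Clec9a at -1.11 and Zbtb46 at 0.36 (edgeR adjusted p = 0.559 and 0.721). At 8 against 6 weeks the fit with the leukocyte unit as library size called none of the 9, beside 0.26% of all genes, with none at an unadjusted p under 0.05, beside 27.5%. The call on Clec9a was lost without the third 4-week mouse or without any 1 of the 12-week mice, where the edgeR adjusted p ran from 0.0573 to 0.0886.

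Other genes of dendritic cells were taken from lists of general knowledge. Of 12 further cDC1 genes 11 were higher at 12 than at 4 weeks and none was lower, with a median log2 fold change of 2.38. Of all genes tested 26.3% were called higher over this interval and 4501 of 16554 lower, a background for every list below. Wdfy4, needed for cross-presentation, went from 6.01 ± 7.23 to 124 ± 23.4 CPM (SD, n = 3; log2 fold change 4.36, edgeR adjusted p = 0.00175). Naaa, an acid amidase, rose by 1.88 to 58.0 CPM and was the next most abundant at 12 weeks, though not at younger ages. Btla, an inhibitory receptor that lymphocytes share, had the largest change at 4.96, while the adhesion gene Cadm1, at 47.9 ± 4.93 CPM already at 4 weeks, changed by 0.21. Nfil3, a transcription factor of cDC1 development, was at 26.8 ± 4.13 and 20.5 ± 1.29 CPM (log2 fold change -0.39, edgeR adjusted p = 0.439).

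Of 10 cDC2 genes 9 were higher, beside 26.3% of all genes, with a median of 3.0. Sirpa, the inhibitory receptor that marks cDC2 and is found on many other cells, was the most abundant and changed from 149 ± 11.9 to 224 ± 27.1 CPM (log2 fold change 0.59, edgeR adjusted p = 0.001). Notch2, the receptor on which splenic cDC2 depend, changed by 2.73, and Irf4, their transcription factor, by 5.03. Clec4a4, a lectin of cDC2, had 0 counts in all 3 mice of 4 weeks and 1.3 ± 0.194 CPM at 12 weeks, at least 11.2-fold higher than the 3-count floor per library. Esam was at 29.0 and 31.1 CPM and was not called (log2 fold change 0.10, edgeR adjusted p = 0.359).

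Of 13 pDC genes 11 were higher, beside 26.3% of all genes, and none lower, with a median of 2.31. Spib, a transcription factor of pDC and B cells, rose from 0.916 ± 1.2 to 60.9 ± 11.1 CPM (log2 fold change 6.04, edgeR adjusted p = 0.000436), and Ly6d, which B-lineage cells also carry, by 5.32. Bst2, a surface protein of pDC that interferon induces widely, rose by 2.31 to 60.0 CPM. Tcf4, the factor that sets pDC identity, stood at 67.7 ± 4.69 CPM at 4 weeks and changed by 0.46. Klk1, which the exocrine pancreas expresses, and Cox6a2 were not called (log2 fold change 1.12 and 0.94, edgeR adjusted p = 0.277 and 0.0698).

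Of 13 genes of mature dendritic cells 11 were higher, beside 26.3% of all genes, and 1 lower, with a median of 2.90. Ccr7, the receptor that guides them to lymph nodes, rose from 0.961 ± 1.41 to 34.8 ± 8.54 CPM (log2 fold change 5.16, edgeR adjusted p = 0.00147), although T and B cells carry it too. Il4i1 changed by 5.04, the actin bundler Fscn1 by 2.49 to 75.1 CPM and Cd83 by 3.56, while Socs2, a regulator of cytokine signalling, changed by 0.54 to 49.6 CPM. Cacnb3, a calcium channel subunit that islet cells use, fell by 0.36 on the log2 scale (edgeR adjusted p = 0.00925). Ccl17 was near the floor of detection, with 3 to 26 counts per mouse, and was not called. Of the 8 tested genes for growth factor receptors and transcription factors 7 were higher, with a median of 1.35, among them Csf2rb at 4.18, Spi1 at 3.30 and Relb at 2.47, while Stat3 at 302 CPM changed by 0.38. Csf2 had at most 6 counts in any mouse and did not pass the filter. The 4 genes of the list around XCR1 were all higher, namely Xcl1, Xcr1, Ccl5 (log2 fold change 3.50, edgeR adjusted p = 0.0294) and Ccl4 (2.79, edgeR adjusted p = 0.032).

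Markers of other leukocytes rose over the same interval, in which 26.3% of all genes were called higher. All 10 macrophage markers were higher, with a median of 2.27, and none was at 0 in any mouse. By mean level they were led by C1qa at 4 and 6 weeks and by Lyz2 from 8 weeks on. The 10 markers summed to 273, 129 and 91.4 CPM at 4 weeks, 113, 166 and 286 CPM at 6 weeks, 177, 580 and 786 CPM at 8 weeks, 1555, 1239 and 727 CPM at 10 weeks and 1469, 1256 and 1469 CPM at 12 weeks. These sums ordered the mice of 4, 6 and 8 weeks as the sums of the 9 genes did. Of 5 monocyte markers 4 were higher, with a median of 2.32 (2.00 with Chil3, at 3 counts or fewer in each 4-week mouse, at its lower bound). By mean level Ccr2 led them up to 10 weeks and Plac8 at 12 weeks. The 8 pan-leukocyte genes, led by Lcp1, had a median of 4.22 and the 8 T cell markers, led by Cd4 at 12 weeks, one of 4.75, all called higher. The 6 B cell markers were all higher too, with a median of 8.25, or 7.85 with Blk at its lower bound. At least 1 mouse was at 0 for 4 of them, including Cd79b, Pax5 and Blk. The B cell markers were led by Cd79a and summed to 7.26, 8.59 and 4.56 CPM at 4 weeks and to 257, 401 and 381 CPM at 12 weeks. Of 5 NK cell markers 4 were higher with a median of 3.60, and of 7 lymph node stroma markers 6, led by Glycam1 at 12 weeks, with a median of 6.82 (5.66 with those at the floor at their bound). Of the 5 neutrophil genes S100a8, S100a9 and Retnlg had at most 11, 9 and 2 counts in any mouse and were not tested. The other two, Csf3r and Cxcr2, were both called higher. Csf3r led the list and rose by 3.32 on the log2 scale (edgeR adjusted p = 0.00536). Cxcr2 had 1 count in each 4-week mouse, under the floor of 3, and stood at 2.15 ± 2.55 CPM at 12 weeks (SD, n = 3; edgeR adjusted p = 0.00192). Csf3r made up 43.5% of the neutrophil sum in 12-week replicate 2, against 89.3% and 91.1% in replicates 1 and 3. The 12-week level of Cxcr2 thus rests largely on replicate 2. The part of these other cells in the levels of the 9 genes was not tested.

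**Figure D4:**
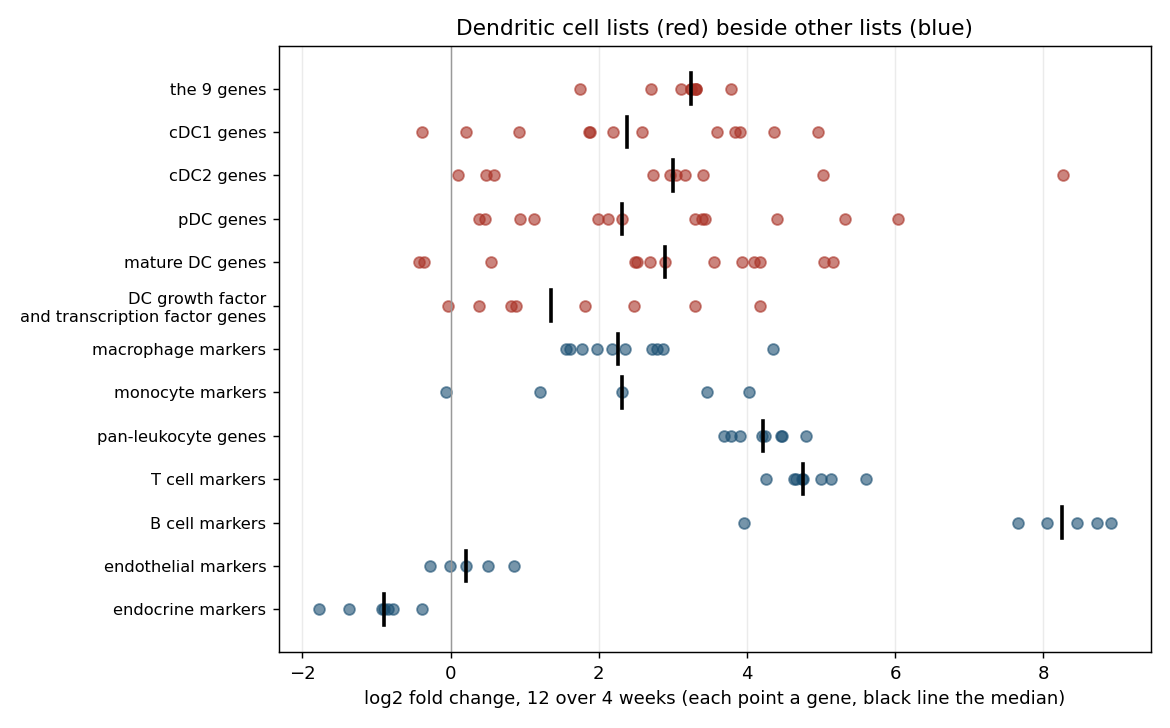
Log2 fold change from 4 to 12 weeks of each gene tested in lists of dendritic cell genes (red) and of other cells (blue), with the median of each list as a black line. The 9 genes have a median of 3.25, between the macrophage markers at 2.27 and the pan-leukocyte genes at 4.22, and the endocrine markers lie below 0 with a median of -0.90.

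Relative to leukocyte RNA, the dendritic cell lists had medians of -2.57 (cDC1), -1.65 (cDC2), -2.47 (pDC), -1.24 (mature) and -3.70 (growth factor receptors and transcription factors) on the log2 scale at 12 against 4 weeks, beside -1.21 for the 9 genes. The macrophage markers were at -2.38, the T cell markers at 1.02 and the B cell markers at 3.97. The median of all genes tested was -5.23, and genes within a list differed widely. They ran from -5.54 to 1.24 (cDC1), -5.12 to 7.25 (cDC2), -4.70 to 2.26 (pDC) and -5.50 to 1.57 (mature). Growth factor receptors and transcription factors ran from -5.24 to -0.18. On the cDC1 list Cadm1, which changed by 0.21 per library, was at -4.91, and Wdfy4, which changed by 4.36, at 0.34. The unit itself holds RNA of all leukocytes, so that a rising share of B and T cell RNA and a falling amount of dendritic cell RNA per leukocyte cannot be told apart in these ratios.

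Finally, for each of the 9 genes the 3 genes with the most similar course over the 15 mice were found, by the root mean square (RMS) difference of log2 CPM after each gene was centred on its mean. Siglech lay nearest to the class II antigen presentation genes H2-Ab1, H2-Aa and H2-Eb1 (RMS difference 0.19, 0.20 and 0.20). Irf8 lay nearest to H2-Aa, H2-Eb1 and Fyb, the last of which encodes an adaptor protein of immune cells (0.19, 0.20 and 0.20). Xcr1 lay nearest to Irf8, H2-Aa and H2-Eb1 (0.24, 0.24 and 0.26), which was the one case of a member of the set among the nearest 3. For comparison, Siglech itself varied around its mean with an RMS of 1.95. Itgax was closest to AW112010, Havcr2 and Ctss, a lysosomal protease of antigen presenting cells (0.18, 0.18 and 0.21). Flt3 was closest to Plbd1, AI662270 and Ifi205 (0.31, 0.31 and 0.34), the last of these on the cDC1 list. Cd209a was closest to Mgl2, a lectin on the cDC2 list, Serpina3n and Adam8 (0.26, 0.26 and 0.27).

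Clec9a and Batf3 had no neighbour as close, with Gvin1, Ifi202b and Il2ra at 0.37, 0.42 and 0.44 for Clec9a and Mefv, Il12rb1 and Oas3 at 0.40, 0.41 and 0.43 for Batf3. Their lowest counts in a mouse were 4 and 0, against 119 for Zbtb46. In 6-week replicate 1 the choice of prior count alone moved Batf3 by 2.00 on the log2 scale. The part of low counts in these distances was not tested. Zbtb46 had Sema4d, Gm2a and Gmip at 0.10, 0.11 and 0.11, against an RMS of 0.80 around its own mean. Within the set, Zbtb46 was the farthest member from Flt3, Xcr1, Batf3, Siglech and Irf8, and from Itgax too, although with a prior count of 0.5 in place of 2 Batf3 was farther from Itgax. With that prior count 24 of the 27 neighbours were shared, with 1 of 3 for Batf3 and 2 of 3 for Flt3.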

How the data were processed

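Islet RNA of 15 NOD females was polyA-enriched and sequenced in pairs; per the study's methods, reads were trimmed, aligned and assigned to genes with the defaults of CLC Genomics Workbench, on mm10 per the labels, and the strand setting is not given in the sources used here. The deposited counts are whole reads per gene with no normalization. The deposited TPM values, scaled by the authors' software to gene length and to a fixed total, were used only to compare levels between genes. The other 30 per-sample columns (RPKM and CPM) were not used.

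Groups came from the ages in the sample titles. Counts were fitted with edgeR 4.0.16 in R 4.3.3 (filterByExpr, TMM, glmQLFit with one mean per age over 15 mice, glmQLFTest, Benjamini-Hochberg over 16554 genes), and a call is an adjusted p under 0.05. CPM values per mouse use TMM-scaled totals, and 3 counts were taken as the floor, for counting error only. In the leukocyte fit the geometric mean count of 8 pan-leukocyte genes replaced the library size, treated as known. Alternatives were DESeq2 1.42.0, its size factors, library totals, no filter, the edgeR exact test, a block, each mouse left out, Ptprc alone and a leukocyte covariate. The permutation test of ratios (0.5 added to counts) and the leaving out of mice in pairs were added after seeing the data.

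The 9 genes and all lists were chosen with earlier results of these data known. Named genes are the 9, the 2 to 4 most abundant and the most changed of each dendritic cell list, and the 3 nearest genes by RMS difference. Genes of other cells were named as the most abundant of their list or for low counts; these, related genes such as ligands and paralogs, and Nfil3, Cox6a2, Ccl17 and Csf2, which were not called or not tested, were chosen after their values were seen. Replicates of one age differed by far more than sampling noise (chi-square per degree of freedom 15.9 to 127), and no pair was counted as 1 sample.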

Additional observations from a re-analysis of the deposited data

How the results depend on the processing

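Each age had 3 mice, and the SE of the log2 fold changes from 4 to 12 weeks ran from 0.29 for Zbtb46 to 1.03 for Flt3. The lowest count in any mouse was 7 or less for Flt3, Xcr1, Clec9a, Batf3, Cd209a and Siglech. The fold changes from 4 to 12 weeks kept their direction and their call in all 126 combinations of gene and alternative, and the count of 9 was 9 when each mouse was left out. At 10 against 8 weeks 118 of 126 combinations kept their side of the threshold and 8 did not, all for Zbtb46, while at 8 against 6 weeks 122 did and 4 passed it anew.

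The count of genes called at 8 against 6 weeks was 0, moved to 1 with DESeq2, and ran from 0 to 3 with each mouse left out. At 10 against 8 weeks the 1 call became 0 without the filter on low counts, with the 2 ages alone and without both mice with intestinal RNA, and the count ran from 0 to 1 with each mouse left out. By the fold and p threshold at 8 against 6 weeks, 5 genes became 1 with the 2 ages alone and 1 without both mice with intestinal RNA, and ran from 1 to 9 with each mouse left out: 9 without 6-week replicate 3 or 8-week replicate 1, and 1 without any other. The share of all genes was taken only without 8-week replicates 1, 2 and 3, at 11.5%, 5.9% and 4.09%. The other alternative counts have no such share beside them. Per leukocyte RNA at 12 against 4 weeks the 2 calls became 0 with the leukocyte mean as a covariate and 1 without both mice with intestinal RNA, and ran from 1 to 2 with each mouse left out; at 8 against 6 weeks the count ran from 0 to 1. The estimate for Flt3 per leukocyte RNA, 0.12, changed sign to -0.13 with Ptprc alone, -1.27 with the covariate and to -0.04 and -0.24 without 4-week replicates 2 and 3, and ran from -0.24 to 0.95 with each mouse left out. Under the covariate Zbtb46 went from -3.41 to 0.36 and Cd209a from -1.37 to 0.47. The cause of these changes was not tested. At 10 against 8 weeks 78.9% of all called genes were higher with library totals against 50.1% with TMM.

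When replicate number was a block, the call on Zbtb46 at 10 against 8 weeks was lost (count 0) and 2 genes passed the fold and p threshold at 8 against 6 weeks, and the block changed no other count by over 1.5 times. The numbers were not found to pair the mice: the correlations of deviations for numbers 1, 2 and 3 were -0.504, -0.0499 and -0.463 at 6 against 4 weeks and 0.509, -0.118 and 0.489 at 8 against 6 weeks.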
